A study of Mus musculus with 12 samples.

Results

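The mitosis genes described here are 45 genes whose products condense chromosomes, build the spindle, attach chromosomes to it and divide the cell. They were taken by symbol from a table of 25263 gene symbols in 12 RNA sequencing libraries of mouse leukemic bone marrow cells. A row was found for 44 of the 45, and all 44 had a mean of at least 1 FPKM (fragments counted for each kilobase of a transcript, relative to the size of the library). *Bub3* was not analysed here. The cells were leukemias of adult mice made with MLL-AF9 (MA9), a fusion oncogene under which the *Hoxa* genes, a cluster of homeobox transcription factor genes, are highly expressed. They form 4 groups of 3 libraries. WT-GFP and WT-Cre are cells of strain C57BL/6 with a wild-type *Hoxa* cluster, and Hoxa-flox and Hoxa-del are cells of strain C57BL/6J with a floxed *Hoxa* cluster, intact in Hoxa-flox and deleted in Hoxa-del. All 4 groups were infected with a retrovirus, which carried GFP alone for WT-GFP and Hoxa-flox and the Cre recombinase for WT-Cre and Hoxa-del, and were sorted for high GFP. All were cultured overnight with the cytokines SCF, GM-CSF, IL-6 and IL-3. Wild-type and floxed cells therefore differ in strain and in leukemia as well as in the locus, and these cannot be told apart. The labels do not say whether the libraries of a group came from separate mice or cultures, so a p-value here is set against the spread among these libraries alone.

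Mitosis genes are transcribed mostly in G2 and M phase, so in a bulk sample their RNA is high where many cells are about to divide and low where cells rest or mature. In quiescent cells the DREAM complex represses them. In dividing cells the MuvB core of that complex works with B-MYB and FOXM1 to activate them. Both act through a promoter element near the transcription start, the cell cycle genes homology region (CHR). CCAAT boxes upstream of it are a separate element that is common in the promoters of mitosis genes. In a bulk library, fewer dividing cells and less mitotic RNA per cell cannot be told apart.

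The promoters of 5 of the genes show these elements at the extremes of the series. *Smc2*, *Cenpe* and *Cenpf* had the highest ratio of the highest to the lowest FPKM among the 6 Hoxa-flox and Hoxa-del libraries, and *Anln* and *Bub1b* had the lowest among genes with a promoter entry. The ratio was 11.4 for *Smc2*, 9.31 for *Cenpe*, 9.08 for *Cenpf*, 2.16 for *Anln* and 2.01 for *Bub1b*. *Smc2* encodes a core subunit of condensin, *Cenpe* a kinetochore motor, *Cenpf* a kinetochore protein, *Anln* the cytokinetic scaffold anillin and *Bub1b* the checkpoint protein BUBR1. Each window runs 5′ to 3′ from 250 bases before to 50 bases after the annotated start (RefSeq, build GRCm38.p6). Capitals mark a CHR (TTTGAA, its reverse complement TTCAAA, or TTCGAA, which is its own reverse complement) or a CCAAT box (CCAAT or its reverse complement ATTGG).
*Smc2* (chr4:52438971-52439270, plus strand): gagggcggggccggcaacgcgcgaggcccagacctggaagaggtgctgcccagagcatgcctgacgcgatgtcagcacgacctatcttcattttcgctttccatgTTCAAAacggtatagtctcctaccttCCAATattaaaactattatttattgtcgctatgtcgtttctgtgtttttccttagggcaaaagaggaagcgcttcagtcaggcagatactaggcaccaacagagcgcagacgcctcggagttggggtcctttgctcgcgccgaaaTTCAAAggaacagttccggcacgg
*Cenpe* (chr3:135212313-135212612, plus strand): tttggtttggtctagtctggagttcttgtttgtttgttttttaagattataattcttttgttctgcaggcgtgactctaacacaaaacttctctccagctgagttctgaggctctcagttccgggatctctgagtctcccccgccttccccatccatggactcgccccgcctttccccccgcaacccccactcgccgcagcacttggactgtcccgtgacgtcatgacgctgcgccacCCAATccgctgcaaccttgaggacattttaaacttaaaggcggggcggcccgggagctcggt
*Cenpf* (chr1:189688037-189688336, minus strand): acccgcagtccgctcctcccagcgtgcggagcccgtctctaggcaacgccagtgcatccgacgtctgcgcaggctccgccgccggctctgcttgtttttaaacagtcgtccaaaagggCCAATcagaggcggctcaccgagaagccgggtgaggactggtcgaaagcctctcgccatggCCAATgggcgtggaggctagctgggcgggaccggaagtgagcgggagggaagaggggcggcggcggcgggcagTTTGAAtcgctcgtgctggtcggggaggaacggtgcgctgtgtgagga
*Anln* (chr9:22389157-22389456, minus strand): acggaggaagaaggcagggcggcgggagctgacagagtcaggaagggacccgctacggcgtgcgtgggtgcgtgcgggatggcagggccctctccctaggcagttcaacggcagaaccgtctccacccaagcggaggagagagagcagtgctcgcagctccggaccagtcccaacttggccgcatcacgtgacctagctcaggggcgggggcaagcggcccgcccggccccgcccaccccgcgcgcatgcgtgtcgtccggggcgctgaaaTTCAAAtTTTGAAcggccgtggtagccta
*Bub1b* (chr2:118597961-118598260, plus strand): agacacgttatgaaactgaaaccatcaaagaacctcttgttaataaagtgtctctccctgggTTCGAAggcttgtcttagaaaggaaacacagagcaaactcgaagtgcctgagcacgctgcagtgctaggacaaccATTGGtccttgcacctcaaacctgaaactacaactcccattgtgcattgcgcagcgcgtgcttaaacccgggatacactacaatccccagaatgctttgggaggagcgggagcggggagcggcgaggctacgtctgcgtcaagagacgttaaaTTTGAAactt

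*Smc2*, *Cenpf* and *Bub1b* held both elements in this window, *Cenpe* held a CCAAT box only and *Anln* held CHR letters only. The genes with the highest and the lowest ratio thus did not separate by these letters. Of the 44 genes, 37 had a promoter entry, and 30 of the 37 (81.1%) held a CHR on either strand, against 19.2% of the 32851 promoters in the table. A CCAAT box was found in 29 of the 37 (78.4%), against 37.4% of all promoters. Both were found in 27 (73%), against 7.52% of all promoters. With sites shared by the 2 overlapping windows of *Ect2* and of *Prc1* counted once, the 40 CHR matches had a median position of -1 base from the annotated start, and 28 lay within 50 bases of it. The 67 CCAAT matches had a median position of -71, and 43 lay in the 100 bases before the start. A match is a description of the letters and not of a factor bound there. *Ccnb1*, *Birc5*, *Mad2l1*, *Cenpe*, *Nuf2*, *Nusap1* and *Tacc3* had no CHR match in the window.

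**Figure D1:**
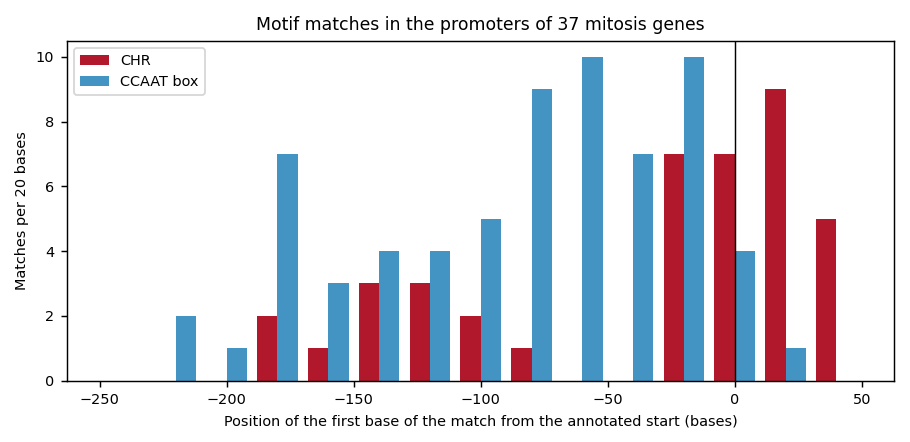
Position of the CHR and CCAAT matches in the promoters of the 37 mitosis genes with an entry, in bases from the annotated start (x axis, first base of each match), against the number of matches in each 20 bases (y axis). The CHR matches (red) gather around the start, with a median of -1, and the CCAAT matches (blue) lie mostly before it, with a median of -71.

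Before the results by gene, the libraries themselves need a description, because the floxed cells did not behave as replicates. A principal component analysis of the 6 Hoxa-flox and Hoxa-del libraries on 12965 genes, with the mitosis genes and other cell cycle genes left out, put 63.5% of the variance on the first component. It set Hoxa-flox 1, Hoxa-flox 2 and Hoxa-del 2 apart from Hoxa-flox 3, Hoxa-del 1 and Hoxa-del 3. They are called the low set and the high set here, for their level of *Mki67*. Each set holds libraries of both genotypes, so the split crosses the labels. The sets were read from the data, and values are therefore given across them with no test. *Hoxa9*, a gene of the targeted cluster, was at 236, 217 and 257 FPKM in Hoxa-flox 1 to 3, at 83.5, 114 and 119 in Hoxa-del 1 to 3 and between 152 and 183 in the WT libraries. Its level went with the labels in both sets (log2 change -1.17 ± 0.16 SE for Hoxa-del against Hoxa-flox, limma adjusted p = 0.0422), but its RNA was not lost from the Hoxa-del libraries. Relative to WT-GFP 1, the fragments behind the libraries were estimated at between 0.313 (WT-Cre 2) and 1.47 (WT-GFP 3) times as many.

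All 11 markers of myeloid leukemic cells were above a mean of 1 FPKM, and their summed level was 6489 to 8458 FPKM in the WT libraries, 3542 to 4588 in Hoxa-flox and 3300 to 5292 in Hoxa-del. Within the floxed cells most markers of this list, and *Csf1r* and *Adgre1* of the macrophage list, moved with the sets. More of the myeloid markers were lower than higher in the high set. *Itgam*, the integrin CD11b of maturing myeloid cells, was at 222, 218 and 183 FPKM in the low set (Hoxa-flox 1, Hoxa-flox 2, Hoxa-del 2) and at 80.0, 121 and 72.2 in the high set (Hoxa-flox 3, Hoxa-del 1, Hoxa-del 3). *Csf1r*, the receptor of the macrophage growth factor CSF1, was at 28.6, 28.6 and 30.5 FPKM in the low set and 4.53, 8.68 and 7.89 in the high set. *Adgre1*, the macrophage protein F4/80, was at 97.1, 99.4 and 95.3 against 42.9, 29.2 and 34.3, and at 41.1 to 48.2 in the WT libraries. *Mpo*, the myeloperoxidase of early granulocytic cells, went the other way, at 4.42, 3.80 and 12.5 FPKM against 31.1, 407 and 98.2. *Ptprc* did so too, at 53.9, 57.8 and 56.2 against 77.1, 97.7 and 74.5. Other genes of the myeloid list did not follow *Mpo*. *Prtn3* was at 1613, 1674 and 1817 against 1033, 1178 and 1005, and *Cebpa* at 186, 198 and 212 against 78.6, 93.2 and 94.3. *Lyz2* was at 182, 183 and 202 against 51.8, 136 and 54.7, and *Csf3r* at 29.2, 30.0 and 27.9 against 13.8, 24.7 and 14.8. *Spi1* was at 239, 216 and 229 against 148, 166 and 168, and *Csf2rb* at 149, 148 and 128.5 against 121, 91.2 and 108. Over all symbols, 31.7% were lower and 23.1% higher in the high set without overlap. *Elane* and *Ctsg* overlapped between the sets. The 7 macrophage markers summed to 210 to 250 FPKM in the WT libraries and to 38.1 to 128.5 in the floxed cells, where *C1qa*, *C1qb*, *C1qc*, *Mrc1* and *Msr1* were at or near 0 in every floxed library and *Adgre1* and *Csf1r* made up nearly the whole sum. The sums for the B cell, erythroid and mast cell lists were at most 5.64 FPKM in any library. The megakaryocyte list summed to 142 to 160 FPKM in the WT libraries and to 4.83 to 13.75 in the floxed cells, the T and NK cell list to 16.3 to 107 over all libraries, and the stromal and endothelial list to 12.1 to 50.1. The part of maturation, or of any other cell type, in the level of the mitosis genes was not tested.

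The mitosis genes split with the 2 sets almost without exception. The low set was below the high set for 43 of the 44 genes, with no overlap between the 3 low and the 3 high libraries, and above it for *Ncapd2*. Of all 13169 symbols whose mean reached 1 FPKM, 23.1% had the 3 high libraries above the 3 low ones and 31.7% had them below. The ratio of the lowest high library to the highest low library, called the gap here, was at least 2 for 28 of the 44 genes, against 4.09% of all symbols. The median gap was 2.32 for the 44 genes and 0.667 for all symbols. With every library rescaled to 1 upper quartile, an alternative chosen after the data were seen, the counts of 43 above and 1 below did not change.

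The median FPKM of the 44 genes was 7.91 and 7.93 in Hoxa-flox 1 and 2 and 8.01 in Hoxa-del 2. It was 30.1 in Hoxa-flox 3, 22.4 in Hoxa-del 1 and 26.3 in Hoxa-del 3. The WT libraries lay between, with 17.1, 17.7 and 18.2 in WT-GFP 1 to 3 and 15.9, 14.2 and 15.9 in WT-Cre 1 to 3. All 3 low libraries were below all 6 WT libraries for 41 of the 44 genes, and all 3 high libraries were above all 6 WT libraries for 29. Over all symbols these shares were 28.4% and 22.3%. Hoxa-flox 3 was the highest of the 12 libraries for 31 genes, and Hoxa-flox 2 was the lowest for 21 and Hoxa-flox 1 for 14. The highest and the lowest levels of most mitosis genes were therefore both found among libraries labelled Hoxa-flox, the cells with an intact cluster. The matching shares over all symbols were not computed, so this is not shown to be particular to the mitosis genes.

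**Figure D2:**
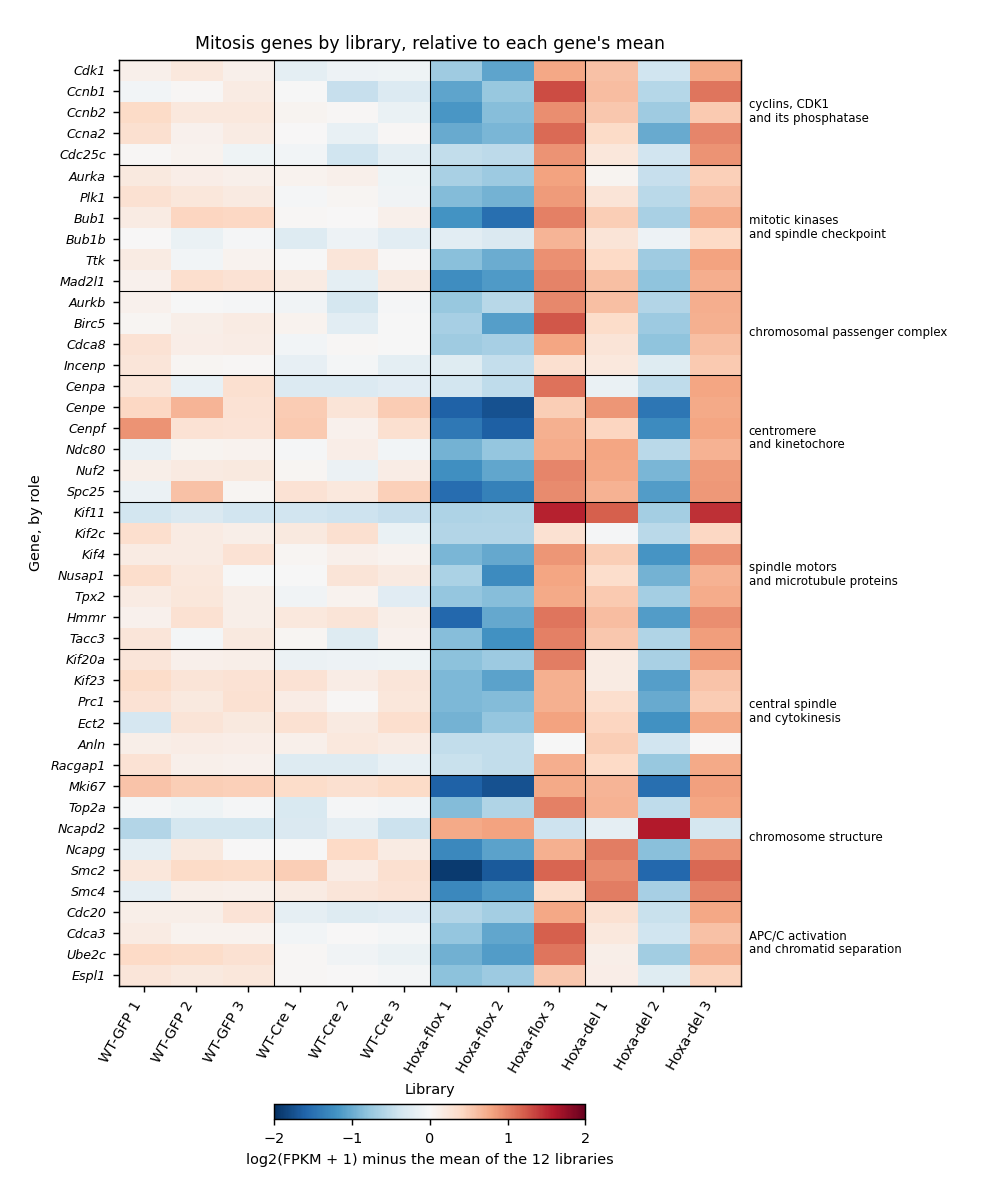
Level of the 44 mitosis genes (rows, ordered by role) in each of the 12 libraries (columns), as log2(FPKM + 1) minus the gene's mean over the libraries, with blue below and red above the mean. Hoxa-flox 1, Hoxa-flox 2 and Hoxa-del 2 are mostly blue and Hoxa-flox 3, Hoxa-del 1 and Hoxa-del 3 mostly red, the WT libraries are pale, and *Ncapd2* shows the reverse.

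The cyclins and the kinase they activate drive entry into mitosis. *Cdk1*, the kinase itself, was at 43.2, 46.7 and 43.2 FPKM in WT-GFP 1 to 3, 34.7, 37.5 and 37.9 in WT-Cre 1 to 3, 24.2, 18.7 and 69.5 in Hoxa-flox 1 to 3 and 61.0, 30.4 and 68.2 in Hoxa-del 1 to 3. The 3 low libraries were below and the 3 high libraries above every WT library. *Ccna2*, cyclin A2 of S phase and early mitosis, was at 29.0, 24.5 and 26.0 in WT-GFP, 23.3, 20.8 and 23.5 in WT-Cre, 10.98, 11.71 and 51.6 in Hoxa-flox and 30.3, 10.9 and 46.2 in Hoxa-del. *Ccnb1*, cyclin B1, was at 7.31, 7.76 and 8.63 FPKM in WT-GFP, 7.56, 5.22 and 6.08 in WT-Cre, 3.16, 4.10 and 20.3 in Hoxa-flox and 12.1, 4.78 and 17.03 in Hoxa-del. For both cyclins the 2 sets again lay on either side of all 6 WT libraries. *Ccnb2*, cyclin B2, was at 8.05 to 11.4 FPKM in the low set and 28.2 to 37.7 in the high set. *Cdc25c*, the phosphatase that removes the inhibitory phosphates from CDK1, was the lowest of the 5, at 1.47 to 1.71 and 3.14 to 5.63 FPKM, and its low set overlapped the WT libraries (1.70 to 2.73).

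Plk1, Aurora A and the checkpoint kinases control spindle assembly and hold anaphase until every chromosome is attached. *Plk1* was at 22.1, 20.7 and 20.1 FPKM in WT-GFP 1 to 3, 17.3, 18.1 and 16.8 in WT-Cre, 9.23, 8.63 and 32.4 in Hoxa-flox and 21.3, 11.9 and 26.7 in Hoxa-del. *Aurka*, the kinase Aurora A of the spindle poles, was at 23.2, 22.3 and 21.8 in WT-GFP, 21.1, 21.7 and 19.0 in WT-Cre, 12.5, 11.8 and 35.9 in Hoxa-flox and 20.9, 14.3 and 28.5 in Hoxa-del. For both kinases the low set was below all WT libraries, while Hoxa-del 1 of the high set lay within their range. *Bub1*, a checkpoint kinase, was at 2.17 to 4.73 FPKM in the low set and 11.74 to 17.1 in the high set, and *Ttk*, the checkpoint kinase MPS1, at 2.12 to 2.79 and 7.21 to 10.7. *Mad2l1*, which encodes the checkpoint inhibitor MAD2, was at 5.42 to 7.66 and 21.9 to 29.0.

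*Bub1b* had the third smallest gap of the 44 genes, 1.29. It was at 16.3, 15.6 and 31.3 FPKM in Hoxa-flox 1 to 3, 23.0, 17.8 and 25.6 in Hoxa-del 1 to 3 and 15.9 to 19.2 in the WT libraries, so Hoxa-flox 1 and Hoxa-del 2 lay within the WT range and Hoxa-flox 2 just under it. The symbol has another row, with a lower mean, in which the order of the sets was turned, at 12.6, 12.6 and 12.9 in the low set and 9.49, 11.1 and 11.04 in the high set. The file does not say which transcript each row holds, and how fragments were divided between them was not tested.

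The chromosomal passenger complex, in which Aurora B acts with INCENP, survivin and borealin, corrects faulty attachments and later marks the plane of division. *Aurkb* was at 22.8, 21.2 and 21.1 FPKM in WT-GFP 1 to 3, 20.3, 16.6 and 21.0 in WT-Cre, 12.2, 14.3 and 42.7 in Hoxa-flox and 33.1, 14.0 and 36.2 in Hoxa-del. *Birc5*, survivin, was at 24.1, 25.4 and 26.3 in WT-GFP, 24.5, 20.005 and 23.2 in WT-Cre, 14.4, 10.3 and 56.6 in Hoxa-flox and 30.3, 13.7 and 39.0 in Hoxa-del. Both lay below every WT library in the low set and above every WT library in the high set. *Cdca8*, borealin, had 12.7 to 14.1 FPKM in the low set and 27.8 to 40.7 in the high set. *Incenp*, the scaffold of the complex, differed less between the sets than its partners, at 20.5 to 24.4 and 33.6 to 42.3 FPKM, a gap of 1.38.

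The centromere and kinetochore genes had the largest median gap of the 8 roles, 3.91 over 6 genes. *Cenpe* was at 10.7, 13.1 and 9.70 FPKM in WT-GFP 1 to 3, 11.5, 9.51 and 11.4 in WT-Cre, 1.86, 1.63 and 11.4 in Hoxa-flox and 15.2, 2.23 and 13.9 in Hoxa-del. *Cenpf* was at 11.57, 7.25 and 7.12 in WT-GFP, 8.71, 6.14 and 7.40 in WT-Cre, 1.504, 1.17 and 10.04 in Hoxa-flox and 8.05, 1.81 and 10.7 in Hoxa-del. For both, the low set was far under the WT libraries while the high set overlapped them. For *Nuf2*, *Spc25* and *Ndc80*, of the NDC80 complex that binds microtubules at the kinetochore, the WT libraries lay between the 2 sets. *Nuf2* was at 3.88 to 5.08 FPKM in the low set, 18.7 to 21.5 in the high set and 9.56 to 12.2 in WT. *Spc25* was at 2.78 to 4.02, 16.7 to 20.01 and 9.08 to 15.4, and *Ndc80* at 2.38 to 3.48, 9.50 to 10.2 and 4.83 to 6.13.

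*Cenpa*, the histone H3 variant that marks the centromere, stood apart from the other kinetochore genes, with a gap of 1.18. It was at 38.1, 28.9 and 39.96 FPKM in WT-GFP 1 to 3, 26.4, 26.3 and 27.2 in WT-Cre, 24.6, 22.1 and 68.6 in Hoxa-flox and 28.9, 22.2 and 56.0 for Hoxa-del. The 3 low libraries were close to the WT-Cre libraries, and Hoxa-del 1 lay with them rather than with the other 2 high libraries.

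**Figure D3:**
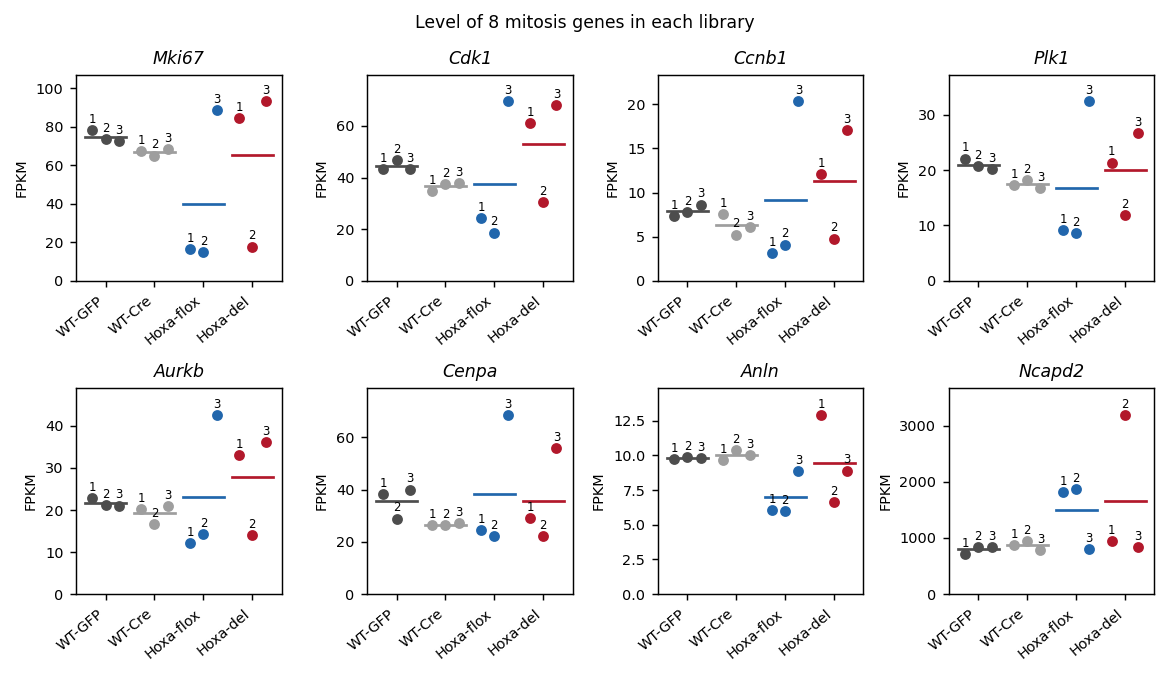
FPKM (y axes, from 0) of 8 mitosis genes in the 3 libraries of each group (x axes), with the library number beside each point and a line at the group mean. Hoxa-flox 3, Hoxa-del 1 and Hoxa-del 3 lie above Hoxa-flox 1, Hoxa-flox 2 and Hoxa-del 2 in 7 of the 8 panels and below them for *Ncapd2*.

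Among the motors and microtubule proteins of the spindle, *Kif11* stood apart. It encodes Eg5, the motor that pushes the spindle poles apart. It was at 9.35, 9.97 and 9.24 FPKM in WT-GFP 1 to 3, 9.31, 9.07 and 8.74 in WT-Cre, 7.78, 7.86 and 37.9 in Hoxa-flox and 29.7, 7.36 and 35.9 for Hoxa-del. The low set was close under the WT libraries, whereas the high set was far above them. In the rest of this role the WT libraries lay further above the low set. *Tpx2*, an activator of Aurora A, was at 10.96 to 12.5 FPKM in the low set, 30.1 to 35.7 in the high set and 17.6 to 24.3 in WT, and *Tacc3*, which stabilises spindle microtubules, at 8.0005 to 12.7, 29.4 to 41.1 and 16.5 to 23.7. *Hmmr* was at 2.29 to 3.81, 14.1 to 19.7 and 9.43 to 11.1, and the chromokinesin *Kif4* at 1.47 to 1.98, 6.89 to 9.48 and 4.72 to 5.79. *Nusap1* was at 3.96 to 6.64, 14.1 to 19.5 and 10.7 to 14.1, while *Kif2c*, a microtubule depolymerase, had the smallest gap of this role at 1.52, with 4.23 to 4.45, 6.77 to 9.46 and 6.15 to 8.99.

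The central spindle forms between the separated chromosomes and places the cleavage furrow. *Prc1*, which bundles its microtubules, was at 21.9, 20.6 and 22.4 FPKM in WT-GFP 1 to 3, 19.8, 18.2 and 21.1 in WT-Cre, 9.12, 9.35 and 30.0 in Hoxa-flox and 22.8, 8.35 and 25.9 in Hoxa-del. *Racgap1* and *Kif23*, the partners of the centralspindlin complex, were at 10.2 to 12.9 and 2.85 to 3.39 FPKM in the low set and at 23.8 to 30.8 and 8.25 to 12.5 in the high set. *Ect2*, the exchange factor that activates RhoA, was at 3.65 to 5.25 and 13.5 to 17.8, and *Kif20a* at 6.17 to 7.02 and 13.2 to 24.8. *Anln* was flatter. It was at 9.72, 9.89 and 9.79 FPKM in WT-GFP, 9.64, 10.4 and 10.0 in WT-Cre, 6.04, 6.00 and 8.87 in Hoxa-flox and 12.9, 6.62 and 8.91 in Hoxa-del. Hoxa-flox 3 and Hoxa-del 3, which were high for nearly every other mitosis gene, lay under all WT libraries for *Anln*.

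Condensin, topoisomerase II and Ki-67 give the mitotic chromosome its compact form. *Smc2* had a gap of 7.11, the largest of the 44. It was at 14.5, 16.3 and 16.0 FPKM in WT-GFP 1 to 3, 17.6, 13.7 and 15.6 in WT-Cre, 2.52, 3.13 and 28.7 in Hoxa-flox and 24.6, 3.45 and 28.3 in Hoxa-del. *Mki67*, the surface protein of mitotic chromosomes used as the Ki-67 proliferation marker, was at 78.2, 73.7 and 72.7 in WT-GFP, 67.4, 65.1 and 68.4 in WT-Cre, 16.4, 14.9 and 88.5 in Hoxa-flox and 84.6, 17.8 and 93.2 in Hoxa-del. *Top2a*, the topoisomerase that untangles sister chromatids, was at 29.3 to 37.8 FPKM in the low set, 87.8 to 110 in the high set and 43.8 to 53.0 in WT. For all 3 genes both sets lay outside the WT range. *Ncapg*, a condensin I subunit, was at 2.504 to 3.76, 12.9 to 16.3 and 6.43 to 10.2.

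*Smc4*, the condensin partner of *Smc2*, was at 73.6, 91.2 and 89.7 FPKM in WT-GFP 1 to 3, 94.4, 99.4 and 102 in WT-Cre, 33.8, 37.8 and 107 in Hoxa-flox and 171, 52.6 and 167 in Hoxa-del. In each set the Hoxa-del libraries were above the Hoxa-flox libraries. Another row of the symbol, with a mean of 13.6 FPKM, had the same order of the sets, at 1.94, 2.71 and 12.5 in Hoxa-flox 1 to 3 and 28.3, 4.22 and 24.1 in Hoxa-del 1 to 3. The gene holds *Mir15b* and *Mir16-2* on its own strand, and neither had a row.

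*Ncapd2*, another condensin I subunit, was the exception in level and in direction. It was at 709, 838 and 837 FPKM in WT-GFP 1 to 3, 878, 940 and 790 in WT-Cre, 1810, 1863 and 798 in Hoxa-flox and 948, 3192 and 838 in Hoxa-del. Its low set was above every WT library, and its high set overlapped them. Per length, its level was above that of *Ncapg*, a subunit of the same complex, in every library (means of 1203 and 8.53 FPKM). The gene (chr6:125168007-125191701, minus strand, GENCODE M21 on GRCm38) holds the small Cajal body RNA gene *Scarna10* (chr6:125186359-125186683) on its own strand, which had no row of its own. Whether fragments of that RNA were counted in the row was not tested, so the row need not show the messenger RNA of *Ncapd2* alone. The annotation bears on other rows too, since 7 of the 44 genes hold a small RNA gene and 11 overlap a protein-coding gene on the opposite strand, and the strand setting of the counting is not given in the sources used here.

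The 4 genes listed under activation of the anaphase-promoting complex (APC/C) and chromatid separation had the smallest median gap of the roles, 1.65. None of them reached 2. *Ube2c*, the ubiquitin enzyme of the APC/C, was at 46.8, 45.3 and 43.6 FPKM in WT-GFP 1 to 3, 35.7, 33.2 and 31.8 in WT-Cre, 17.4, 15.5 and 74.4 in Hoxa-flox and 38.1, 21.3 and 58.5 in Hoxa-del. *Cdca3* was at 33.1, 30.9 and 30.9 in WT-GFP, 28.4, 29.5 and 28.8 in WT-Cre, 16.8, 13.8 and 68.7 in Hoxa-flox and 34.4, 22.1 and 45.0 in Hoxa-del. In both genes Hoxa-flox 3 was clearly the highest library and Hoxa-del 1 was within or close to the WT range. *Cdc20*, the activator of the APC/C, was at 11.3 to 13.5 FPKM in the low set and 23.4 to 32.7 in the high set, and *Espl1*, the protease separase, at 2.49 to 4.20 and 5.70 to 7.94.

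**Figure D4:**
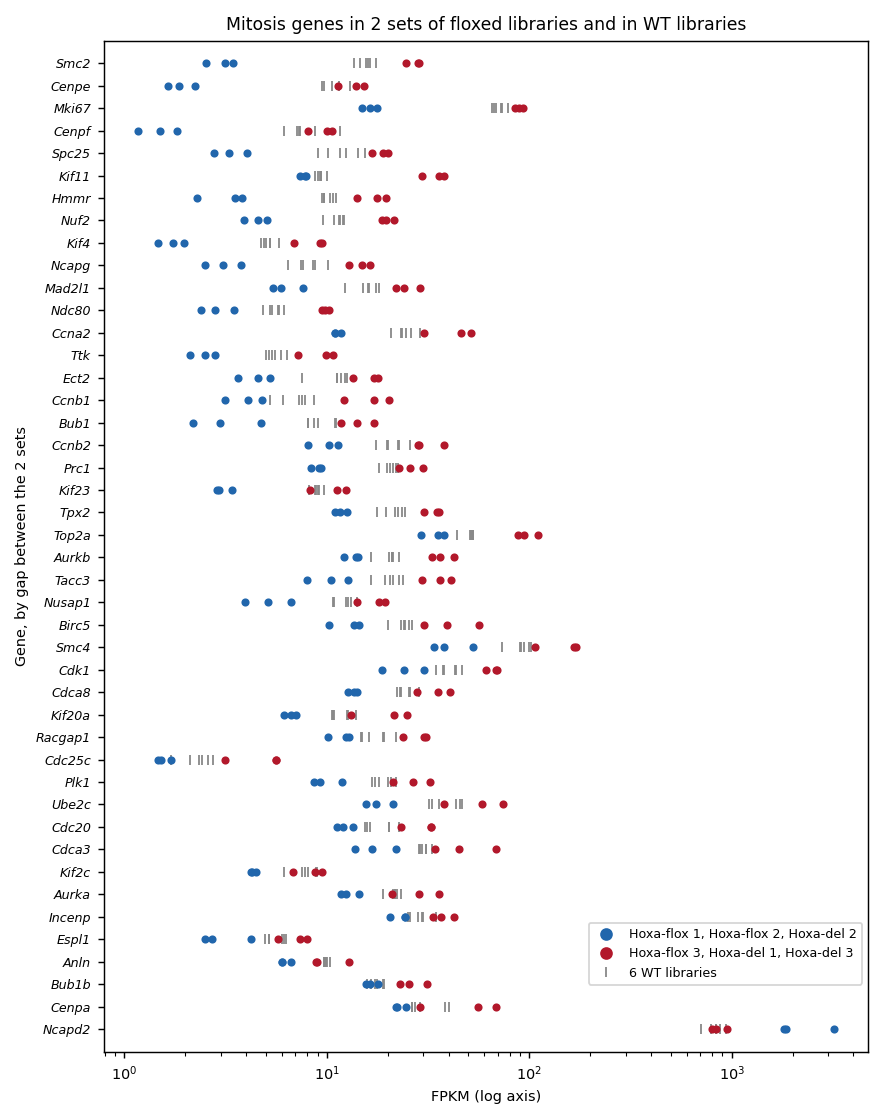
FPKM (x axis, log scale) of each of the 44 mitosis genes (y axis, ordered by the gap between the sets) in the low set (blue), the high set (red) and the 6 WT libraries (grey ticks). The 2 sets do not overlap in any row, 43 rows have the high set to the right, and *Ncapd2* has it to the left.

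Within a set the 2 genotypes can be set side by side, with 1 or 2 libraries each and so with no test. In the low set, Hoxa-del 2 minus the mean of Hoxa-flox 1 and 2 had a median of 0.20 on the log2(FPKM + 1) scale over the 44 genes. The median was 0 over all symbols, and 34 of the 44 were above 0. In the high set, the mean of Hoxa-del 1 and 3 minus Hoxa-flox 3 had a median of -0.27 over the 44 genes. The median was -0.06 over all symbols, and 36 of the 44 were below 0. The medians of the 44 genes in the 2 sets were thus opposite in sign. In the high set the differences went with transcript length. For Hoxa-del 1 minus Hoxa-flox 3, the 22 shorter genes (longest annotated transcript up to 3668 bases) had a median of -0.51 and were all lower, while the 22 longer genes had a median of -0.26 and 16 were lower. The extremes were *Cenpa* at -1.22 and *Smc4* at 0.67. The Spearman correlation with length was 0.58 over these 44 genes and 0.22 over 10199 protein-coding genes, which share the same pair of libraries and are not independent replicates. For Hoxa-del 3 minus Hoxa-flox 3 it was 0.51 over the 44 genes and 0.22 over the protein-coding genes. In the low set it was -0.02 over the 44 genes for Hoxa-del 2 minus Hoxa-flox 1, and -0.04 for Hoxa-del 2 minus Hoxa-flox 2. Over the protein-coding genes these low-set pairs gave -0.20 and -0.21, so length went with the differences there too, in the other direction. Length also went with differences between libraries of 1 group, at -0.41 for Hoxa-del 3 minus Hoxa-del 1 and -0.27 for WT-GFP 1 minus WT-GFP 2. What length stands for here was not tested.

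The comparison the study is built on is Hoxa-del against Hoxa-flox, which asks what deleting the cluster does in the leukemic cells. No mitosis gene passed the test (limma on log2(FPKM + 1), adjusted p under 0.05 over 13169 symbols). The background was 0.0304% of symbols called, which is 4 genes. The fitted change was above 0 for 42 of the 44 genes, against 41.3% of all symbols. Its median was 0.43 against -0.06 for all symbols, and the median standard error of the 44 genes was 0.47. No mitosis gene had its 3 Hoxa-del libraries all above or all below the 3 Hoxa-flox libraries, against 2.25% of symbols higher and 4.14% lower. *Smc4* had the smallest p (log2 change 1.14 ± 0.47 SE, unadjusted p = 0.0350, adjusted p = 0.729). It was the only one of the 44 under 0.05 unadjusted, against 2.9% of symbols higher and 3.4% lower. *Anln* (0.37 ± 0.21, adjusted p = 0.730) and *Ncapg* (0.91 ± 0.54, adjusted p = 0.739) followed. *Mki67* was at 39.9 ± 42.1 FPKM (SD, n = 3) in Hoxa-flox and 65.2 ± 41.3 among the Hoxa-del libraries.

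Hoxa-flox 3 and Hoxa-del 2 stood apart from the other libraries of their groups. Without Hoxa-del 2, *Smc4* was called (limma adjusted p = 0.0452), which is 1 of 44 higher against 2.44% of all symbols, and the median change was 0.89. Without Hoxa-flox 3, none was called at a median of 1.04. With weights estimated for each library, which were lowest for Hoxa-del 2 and Hoxa-flox 3, 43 genes were called, 42 of them higher, in a fit that called 39.3% of all symbols. Each of these fits compares mainly libraries of different sets. On the log2 scale, the median SD of the 44 genes among replicates was 0.085 for WT-GFP and 0.094 for WT-Cre, against 1.03 in Hoxa-flox and 0.76 in Hoxa-del. For all symbols it was 0.116, 0.124, 0.290 and 0.357.

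WT-Cre against WT-GFP shows the same pair of viruses in cells with a wild-type cluster. None of the 44 genes was called, against a background of 0.0152% or 2 genes. None had an unadjusted p under 0.05, against 1.2% of symbols higher and 1.2% lower. The direction was nonetheless mostly downward in WT-Cre, with 35 of 44 below 0, against 57.3% of all symbols. The median was -0.15 against -0.03 for all symbols. In 19 genes all 3 WT-Cre libraries were below all 3 WT-GFP libraries, against 16.3% of all symbols. They were *Cdk1*, *Ccna2*, *Ccnb2*, *Plk1*, *Aurka*, *Aurkb*, *Bub1*, *Cenpa*, *Incenp*, *Cdca8*, *Cdca3*, *Cdc20*, *Ube2c*, *Espl1*, *Tpx2*, *Kif4*, *Kif20a*, *Racgap1* and *Mki67*. *Smc4* alone had the 3 WT-Cre libraries all above, against 9.31% of symbols. After the same rescaling, 16 genes were apart downward against 12.2% of symbols. For WT-Cre minus WT-GFP of numbers 1 to 3, 19, 18 and 20 of the 22 shorter genes were lower, and 13, 16 and 16 of the 22 longer ones. The Spearman correlation with transcript length was 0.17, 0.14 and 0.33 over the 44 genes and 0.22, 0.08 and 0.165 over protein-coding genes. The part of length in the downward direction was not tested.

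The differences in WT-Cre were small in size. *Ube2c* had the lowest fitted change, -0.42, and was at 45.2 ± 1.6 FPKM (SD, n = 3) in WT-GFP and 33.6 ± 2.0 in WT-Cre. *Cdc20* had the smallest p (-0.39 ± 0.37 SE, limma adjusted p = 1), with 21.1 ± 1.3 and 15.9 ± 0.4 FPKM, followed by *Incenp* (-0.23 ± 0.22) and *Racgap1* (-0.37 ± 0.38) at the same adjusted p. The standard errors come from 1 spread shared by all 4 groups, which the floxed libraries widen for these genes.

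The interaction asks whether the change from Hoxa-flox to Hoxa-del differs from that from WT-GFP to WT-Cre. It called none of the 44 genes, against 0.00759% of symbols or 1 gene. None of the 44 had an unadjusted p under 0.05, against 1.2% of symbols higher and 1.2% lower. The median was 0.61 and 43 of 44 were above 0, against a median of -0.02 and 47.1% above 0 for all symbols. The smallest p belonged to *Incenp* (0.53 ± 0.32 SE), *Cdk1* (0.91 ± 0.59) and *Espl1* (0.67 ± 0.44), all at a limma adjusted p of 0.9997. The median standard error, 0.67, was above the median change.

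Hoxa-flox against WT-GFP compares the 2 kinds of leukemia under the control virus, and there 26.8% of all symbols were called. None of the 44 genes was. Only 1 had an unadjusted p under 0.05, on the lower side, against 19.0% of symbols lower and 19.3% higher. The Hoxa-flox libraries belong to both sets, and their median SD was 1.03 for the 44 genes against 0.290 for all symbols. The low count therefore does not show that these genes were at the WT-GFP level. The contrasts share groups of libraries, so the values of a gene in them are not independent. The median was -0.47, with 41 below 0, against 49.95% of all symbols. *Anln* was the only gene with all 3 Hoxa-flox libraries below all 3 WT-GFP libraries, against 23.3% of symbols, and none had them all above, against 23.9%. It fell short of the threshold (-0.46 ± 0.21 SE, limma adjusted p = 0.130), as did *Cenpe* (-1.41 ± 0.64, adjusted p = 0.132) and *Cenpf* (-1.27 ± 0.62, adjusted p = 0.157). Without Hoxa-flox 3, 25 genes were called, all lower, against 15.9% of all symbols called lower, and the median was -1.001. Without Hoxa-flox 1 or 2, none was called.

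Hoxa-del against WT-Cre makes the same comparison under Cre. The background was 27.2% of symbols called, and again none of the 44 genes was. None of the 44 had an unadjusted p under 0.05, against 19.0% of symbols higher and 19.6% lower. The Hoxa-del libraries also belong to both sets, with a median SD of 0.76 for the 44 genes against 0.357 for all symbols. The same limit holds here. The median was 0.15, with 31 above 0, against 50.3% of all symbols. All 3 Hoxa-del libraries were above all 3 WT-Cre libraries for *Bub1b* alone, against 20.7% of symbols, and no longer after rescaling to equal upper quartiles. None of the 44 was below, where the background was also 20.7%. *Kif11* had the smallest p (1.08 ± 0.60 SE, limma adjusted p = 0.215), followed by *Bub1b* (0.37 ± 0.23, adjusted p = 0.263) and *Ncapd2* (0.65 ± 0.47, adjusted p = 0.343). Without Hoxa-del 2, *Kif11* was called (1.75, adjusted p = 0.0286), 1 of 44 higher against 13.2% of all symbols. The median was 0.58 without Hoxa-del 2 and -0.11 without Hoxa-del 3, so its direction rests on which library is left out.

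**Figure D5:**
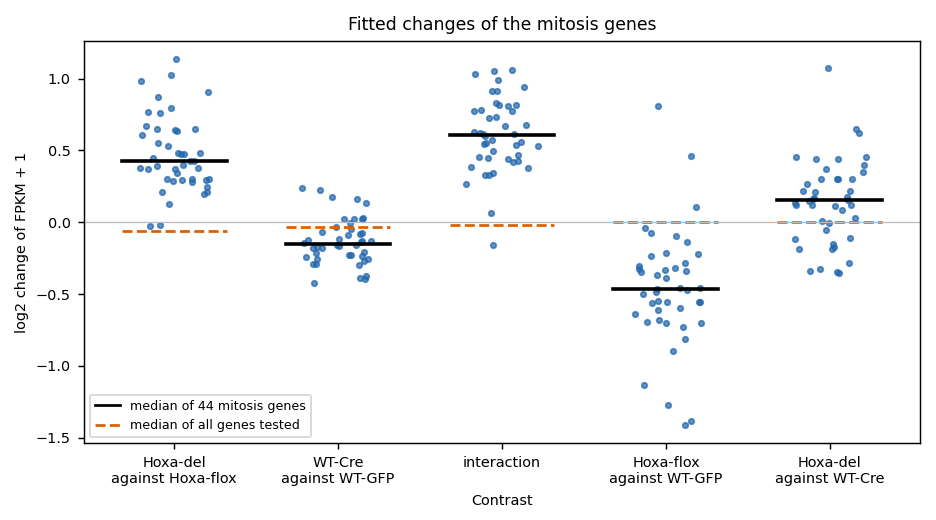
Fitted log2 change of FPKM + 1 (y axis) of the 44 mitosis genes (points) in each of the 5 contrasts (x axis), with the median of the 44 genes (black line) and of all 13169 symbols tested (dashed line). The medians of the mitosis genes lie between -0.47 and 0.61, and no point passes the test.

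Other genes of the cell cycle, listed apart from the 44, were read in the same way across the sets. Of 54 further mitosis genes with a mean of at least 1 FPKM, 49 had the high set above the low set, 28 of them with a gap of at least 2, and the median gap was 2.05. *Lmnb1*, which encodes lamin B1 of the nuclear envelope, was at 22.1, 20.4 and 22.3 FPKM in the low set (Hoxa-flox 1, Hoxa-flox 2, Hoxa-del 2) and 74.9, 45.2 and 72.5 in the high set (Hoxa-flox 3, Hoxa-del 1, Hoxa-del 3). *Tubb4b*, a beta tubulin, was at 96.4, 98.0 and 112 against 241, 118 and 197. *Pttg1*, securin, was the exception, at 19.3, 18.7 and 17.6 against 14.2, 9.40 and 11.695, and is named because its direction stood out.

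Of 28 S phase genes, 27 had the high set above the low set, with a median gap of 1.67. *Mcm3* and *Mcm6*, subunits of the replicative helicase, had gaps of 1.65 and 1.68. All 8 cohesin genes, whose products hold sister chromatids together, were also higher in the high set, with a median gap of 1.89. *Pds5a* and *Stag2*, the regulators of the ring with the highest levels, had gaps of 2.01 and 1.81.

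Lists of other functions did not follow in the same way. Over all symbols, 23.1% were higher and 31.7% lower in the high set without overlap. Of 14 genes for the subunits of the APC/C and its activator CDH1, 4 were higher and 5 lower in the high set, near those shares. The G1 cyclins and kinases (8 genes) had 3 higher and 3 lower, and the inhibitors of CDKs and of CDK1 (7 genes) 2 and 2. A list of phosphatases and their regulators (12 genes) had 6 and 4. It includes *Cdc25a*, *Cdc25b*, *Ensa* and *Arpp19* and is not limited to phosphatases of mitotic exit. Of 10 genes of quiescence and myeloid differentiation, none was higher in the high set and 7 were lower. *Gfi1*, a repressor needed for granulocyte maturation, was at 170, 171 and 169 FPKM in the low set and 73.7, 130.3 and 77.3 in the high set. *Cebpe*, of the same list, overlapped between the sets, at 72.8, 79.1 and 95.1 against 41.5, 104 and 56.7. *Cdkn1b*, which encodes the CDK inhibitor p27, was at 37.6, 41.96 and 47.6 against 17.5, 24.6 and 18.7. *Cdkn1a*, a CDK inhibitor gene with a higher mean, overlapped between the sets, at 68.9, 77.2 and 91.9 against 95.7, 54.9 and 93.2.

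The regulators that act at mitotic promoters split with the sets only in part. Of 13 MuvB, DREAM and FOXM1 genes, 7 had the high set above the low set and 1 below, with a median gap of 1.09, and of 6 E2F and RB genes 4 were above, with a median of 1.18. *Mybl2* and *Foxm1*, named for their known role at these promoters, were among those above. *Mybl2*, B-MYB, was at 18.3, 18.6 and 14.8 FPKM in WT-GFP 1 to 3, 13.5, 14.0 and 13.6 in WT-Cre, 7.75, 8.39 and 22.5 in Hoxa-flox and 19.0, 7.97 and 20.02 in Hoxa-del. *Foxm1* was at 15.4, 13.6 and 14.8 in WT-GFP, 12.9, 11.8 and 12.6 in WT-Cre, 4.27, 4.27 and 14.7 in Hoxa-flox and 12.8, 7.51 and 15.7 in Hoxa-del. Both were low in the low set, and in the high set *Foxm1* stayed within or close to the WT range. *Rbbp4* and *Tfdp1*, the 2 highest genes of the list, had gaps of 0.94 and 1.39. A CHR was found in 3 of the 9 promoters of this list, 24 of the 42 of the further mitosis genes, 5 of the 24 of the S phase genes and 2 of the 13 of the APC/C subunits.

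By test, none of these lists had a gene called in the comparison of Hoxa-del with Hoxa-flox, in that of WT-Cre with WT-GFP, or in the interaction. Against the WT groups, *Ccnd1* and *Ccnd2*, the G1 cyclins D1 and D2, fell in Hoxa-flox against WT-GFP (-2.64 and -2.58, limma adjusted p = 4.8e-06 and 0.0056) and *Cdk6*, their kinase, rose (1.22, adjusted p = 0.0040). The same 3 were called in Hoxa-del against WT-Cre, at -2.97, -2.71 and 1.03. *E2f2*, an activator of S phase genes, rose in both (1.23 and 1.25, adjusted p = 0.00064 and 0.00062). *Cdkn1c*, the CDK inhibitor p57, fell in both (-1.10 and -1.004, adjusted p = 0.0023 and 0.0041), and *Cdkn2d*, the CDK inhibitor p19, rose in both (0.81 and 0.61, adjusted p = 0.0066 and 0.0293). *Ppp2ca*, a catalytic subunit of the phosphatase PP2A, rose in both (0.64 and 0.68, adjusted p = 0.0054 and 0.0042). Of the 10 genes of quiescence and differentiation, 1 rose and 3 fell in Hoxa-flox and 1 rose and 4 fell in Hoxa-del, beside the 26.8% and 27.2% of all symbols called in these contrasts, with *Klf4*, a factor of monocyte maturation, at -2.13 and -1.33 (adjusted p = 0.00012 and 0.0030). Of the 54 further mitosis genes, *Troap* fell in Hoxa-flox (-0.85, adjusted p = 0.0405) and *Ncaph2*, a condensin II subunit, rose in Hoxa-del (0.69, adjusted p = 0.0012). Of the S phase genes, *Cdc45* fell in Hoxa-flox (-0.997, adjusted p = 0.0310), and *Cdc6* and *Mcm2* rose in Hoxa-del (0.95 and 0.93, adjusted p = 0.0335 and 0.0440).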

How the data were processed

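Total RNA was isolated with TRIzol from 12 samples, and stranded libraries depleted of ribosomal RNA were sequenced on a NextSeq instrument, per the labels' protocols. The deposited table holds 28042 rows by symbol and 1 column per library, and 0 columns were left without a sample. The unit is not named in its header, and the authors' values were taken as FPKM, the unit Cufflinks gives; the submitters' processing notes list mm10, GRCm38, STAR, Cufflinks and Cuffdiff 2.2.2.20150701 without their role. For 1855 repeated symbols, only the row of highest mean was used. The mitosis genes and all lists were chosen with earlier results of these data known.

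In R 4.3.3, limma-trend (limma 3.58.1) was fitted to log2(FPKM + 1), which understates the change of low genes, over 13169 symbols whose mean reached 1 FPKM. All 4 groups entered 1 fit, and p-values were adjusted by Benjamini-Hochberg (threshold 0.05). The fit was tested on simulated data that had the spread of the WT libraries in every group. That test cannot show how the fit behaves with the wider spread of the floxed libraries. Log2 changes with their errors were printed for the members past the threshold or, with fewer than 3, for the 3 with the smallest p; from other lists, for up to 3 called genes, or else the 2 with the highest mean. Depth was compared from the ratios of low rows (mean under 0.3 FPKM), of which 15.2% to 19.5% lay at the most frequent value. Whole reads were not recovered, so no count model was used. Alternatives were another pseudocount, no filter, rescaling to equal upper quartiles, summed rows, array weights, the replicate number or the library set as a term, and each library left out. Tables were made with Python 3.11.15, pandas 2.3.3 and numpy 2.4.6.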

Additional observations from a re-analysis of the deposited data

How the results depend on the processing

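Counts of called mitosis genes were computed under 72 settings, of which 65 gave the reported 0. The array weights, which estimate the reliability of each library, changed 4 of the 5 contrasts: they gave 43 called genes in Hoxa-del against Hoxa-flox (42 higher; 39.3% of all symbols called), 44 in the interaction (43 higher; 26.2%), 43 in Hoxa-flox against WT-GFP (42 lower; 69.8%) and 12 in Hoxa-del against WT-Cre (all higher; 36.5%). These weights were lowest for Hoxa-del 2 (0.0881) and Hoxa-flox 3 (0.0967), so that fit, by its construction, leaves mainly the low set for Hoxa-flox and the high set for Hoxa-del. Leaving out 1 library at a time gave 0 to 1 called genes in Hoxa-del against Hoxa-flox (0.0152% to 5.98% of all symbols), 0 to 25 in Hoxa-flox against WT-GFP (18.3% to 31.9%) and 0 to 1 in Hoxa-del against WT-Cre (19.4% to 30.3%). Of 216 settings of the named changes, 200 stayed on their side of the threshold, 16 passed it in the same direction, and none turned. With the library set as a term, 0 were called and the median change was -0.04 for Hoxa-del against Hoxa-flox and 0.11 for the interaction. The replicate numbers are not stated to pair the libraries. Same-numbered Hoxa-flox and Hoxa-del libraries had correlations of -0.30, 0.60 and 0.72 between their deviations, and Hoxa-flox 1 was nearest to Hoxa-del 2 (0.61). Same-numbered WT-GFP and WT-Cre libraries had 0.011, -0.005 and 0.090. The floxed values carry the split into 2 sets, so they cannot show whether libraries were paired by origin. With the replicate number as a block, 0 genes were called in every contrast (smallest adjusted p 0.095). A fit of only the groups compared is the reported fit for the interaction and was not run there. Where a library was left out of a group, the 2 that stayed share the spread of all groups. The depth of WT-Cre 2, 0.313 times that of WT-GFP 1, limits low genes most.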
